A study of Arabidopsis thaliana with 36 samples.

Results

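Grafted rootstocks of the Arabidopsis thaliana mutant anac071,096 were compared with grafted rootstocks of the wild type Col-0. The comparison used 6 of the 36 RNA-seq libraries of the series, chosen by their labels: 3 from anac071,096 rootstocks and 3 from Col-0 rootstocks. The series held 12 groups of 3 libraries: Col-0, anac071,096, erf114,115 and a line labelled dof quadruple, each as intact hypocotyl, scion and rootstock. Seedlings were 7 days old and grown with 8 h of light. All groups, intact ones included, had lost 1 cotyledon. Grafted plants were also cut across the hypocotyl and joined to the matching piece of another plant. A rootstock sample was the 0.5 mm of hypocotyl below the junction, taken 24 h after grafting. Scion pieces were also 0.5 mm long, whereas intact pieces were 1 mm long. The labels do not say whether both sides of a graft had the same genotype, what alleles the mutants carry, or how many plants went into a library. Library totals were 20.9 to 25.5 M counts (M, 1e+06) in these 6 libraries.

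ANAC071 and ANAC096 encode plant transcription factors of the NAC family. ANAC071 is known from cut Arabidopsis flowering stems, where auxin induces it above a cut, where it acts in the division of cells that rejoin the tissue, and where the wall-loosening genes XTH19 and XTH20 are described as its targets. ANAC071 and ANAC096 together are known to promote cambium-like cells at wounds and the rejoining of grafts. In a hypocotyl the cambium is the layer of dividing cells between xylem and phloem. The sieve elements of the phloem lose their nucleus as they mature and carry sugars, and companion cells load them. The comparison addresses which transcripts below a graft differ when these NAC genes are mutated.

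The rootstock libraries of the mutant differed from wild type mostly by lower transcripts. Of 19476 tested loci, 155 were lower and 13 were higher in anac071,096 (edgeR quasi-likelihood test, Benjamini-Hochberg adjusted p below 0.05). These are 0.796% and 0.0667% of the tested loci, and 0.863% for both directions. The median log2 change of the 155 lower loci was −2.60, and 146 of them were at least 2-fold lower. At 142 of the 155 lower loci every mutant library lay below every Col-0 library, against 4.32% of all tested loci. The 155 were chosen on these same libraries, so this separation follows in large part from that choice. Fitting the 6 libraries alone gave 57 lower loci, 54 of them among the 155, and 8 higher. Fewer libraries then estimate the spread, but the same kind of fit in scions raised the lower loci from 70 to 165. The cause of these shifts was not tested. The genes lower in the mutant included regulators of the cambium and early phloem and proteins of sieve elements. No listed gene of photosynthesis, DNA replication or mitosis passed, and none of the listed XTH genes. Nor did 5 members of the phloem list known from loading and companion cells, a subset set apart after the values were seen. In whole tissue pieces, fewer cells of a type and less RNA per cell cannot be told apart.

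Col-0 rootstock replicate 1 stood apart. It held 2514 loci counted in no other library of the series, 8530 counts or 0.0395% of its total, whereas no other library had more than 34 such loci. The summed level of 4 seed storage genes was 130.6 CPM (counts per 1e+06 of the library's TMM-scaled total over tested loci) in it. The sum was 0 in the other Col-0 rootstock libraries, 0.0458 to 0.143 CPM in the mutant and at most 3.37 CPM in the other 35 libraries of the series. Without it, 123 of the 155 lower and 10 of the 13 higher loci passed again. Of the 15 lower loci at which it exceeded 5 times both other Col-0 libraries, 1 passed again. Mutant replicate 1 was the lowest of its group at 105 of the 155 lower loci, and without it 84 loci passed, 76 of them lower. Col-0 replicate 3 was the highest of its group at 90 of the 155, and without it 112 of the 155 passed again. Across all 6 omissions of a single library 72 lower and 5 higher loci were kept.

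**Figure D1:**
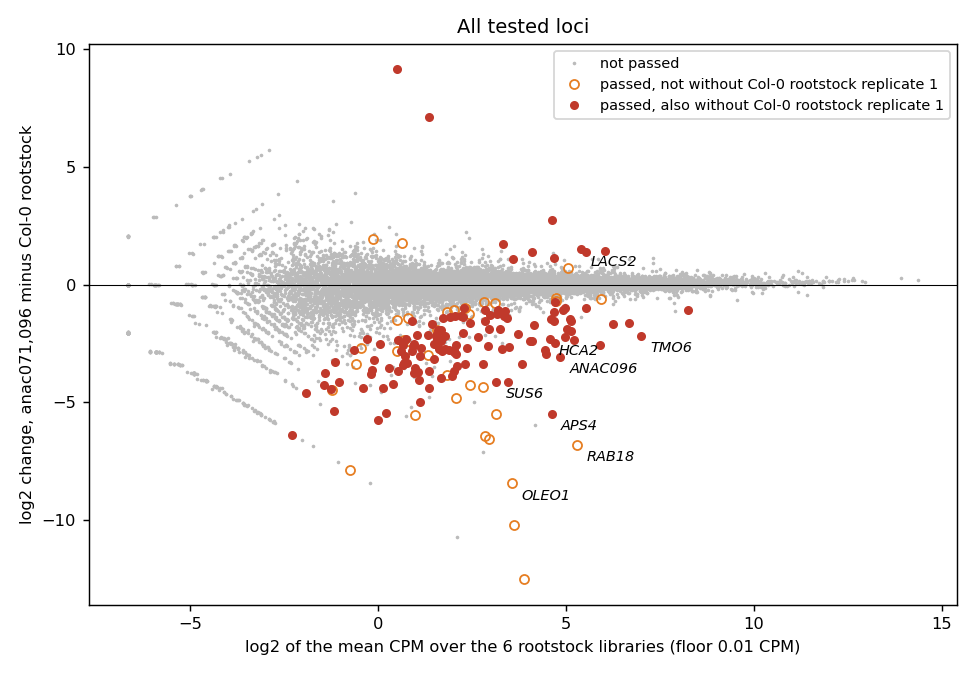
Log2 change of each tested locus, anac071,096 minus Col-0 rootstock, against the log2 of its mean CPM over the 6 rootstock libraries. Filled red points passed with and without Col-0 rootstock replicate 1, open orange points passed only with it, and grey points did not pass. Most coloured points lie below 0, with 155 lower and 13 higher loci, and OLEO1 and RAB18 are among the open ones.

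The mutated genes were checked first. ANAC096 (AT5G46590, chr5:18905258-18907052, plus strand, TAIR10.1) was at 6.96, 5.87 and 5.43 CPM in mutant replicates 1, 2 and 3 and at 48.9, 52.3 and 53.6 CPM in Col-0. ANAC071 (AT4G17980, chr4:9978703-9980555, minus strand) was at 1.97, 1.45 and 3.00 CPM in the mutant and at 9.45, 12.5 and 17.2 CPM in Col-0. Both genes were low in all 3 mutant libraries, the groups did not overlap, and reads remained at both. The log2 change was −3.08 ± 0.30 (SE) for ANAC096 (adjusted p = 1.02e-07, edgeR) and −2.60 ± 0.36 for ANAC071 (adjusted p = 1.01e-04). In intact hypocotyls ANAC071 had 0 counts in both genotypes, and ANAC096 was at 0.653 ± 0.253 CPM (SD, n = 3) in Col-0 and 0.125 ± 0.105 CPM in the mutant. ANAC011, a further NAC gene of the list, was at 0 to 0.351 CPM in the 6 libraries and did not pass. Within 100 kb on each side, 1 of 34 tested neighbours of ANAC071 (ATL4H) and 1 of 37 of ANAC096 (AT5G46530) passed.

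DOF transcription factors of the vasculature were lower in the mutant rootstock. This family binds DNA through a zinc finger, and several members promote the cambium and the early phloem. Of 6 listed genes, 5 were lower, against 0.796% of all tested loci, and none was higher. The median log2 change of the 6 was −1.23, against 0.035 over all tested loci. Their summed level was 207 to 282 CPM in the mutant libraries and 615 to 757 CPM in Col-0.

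HCA2 (AT5G62940, DOF5.6), whose increased activity raises cambial activity, was at 7.19, 9.03 and 7.86 CPM in mutant replicates 1 to 3. In Col-0 it was at 36.3, 35.4 and 46.8 CPM. Every mutant library was far below every wild-type library, and the log2 change was −2.30 ± 0.20 (adjusted p = 1.51e-08, edgeR). TMO6 (AT5G60200), a DOF gene downstream of auxin response in young vasculature, was at 42.9, 51.8 and 45.4 CPM in the mutant against 196, 177 and 256 CPM in Col-0. The groups did not overlap (log2 change −2.17 ± 0.20, adjusted p = 2.40e-08). AT2G28510, another gene of the family, was at 152, 202 and 222 CPM in the mutant and 405, 387 and 442 CPM in Col-0. This is a smaller difference of −1.1 ± 0.25 (adjusted p = 0.0176), again without overlap.

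AT5G02460 changed by −0.99 ± 0.21 (adjusted p = 0.00929, edgeR) and AT2G37590 by −1.37 ± 0.31 (adjusted p = 0.0217). DOF6 (AT3G45610) did not pass, at 0.595 to 1.5 CPM in the mutant and 1.5 to 2.18 CPM in Col-0. HCA2 and TMO6 passed under every omission of a single library. AT2G28510 lost its call without Col-0 replicate 3 or mutant replicate 1 or 2 (adjusted p = 0.0680, 0.202 and 0.0614, edgeR). AT5G02460 lost it without Col-0 replicate 1 or mutant replicate 1 or 2 (adjusted p = 0.0559, 0.122 and 0.0915). AT2G37590 lost it without Col-0 replicate 2 or mutant replicate 1 or 3 (adjusted p = 0.154, 0.162 and 0.206).

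**Figure D2:**
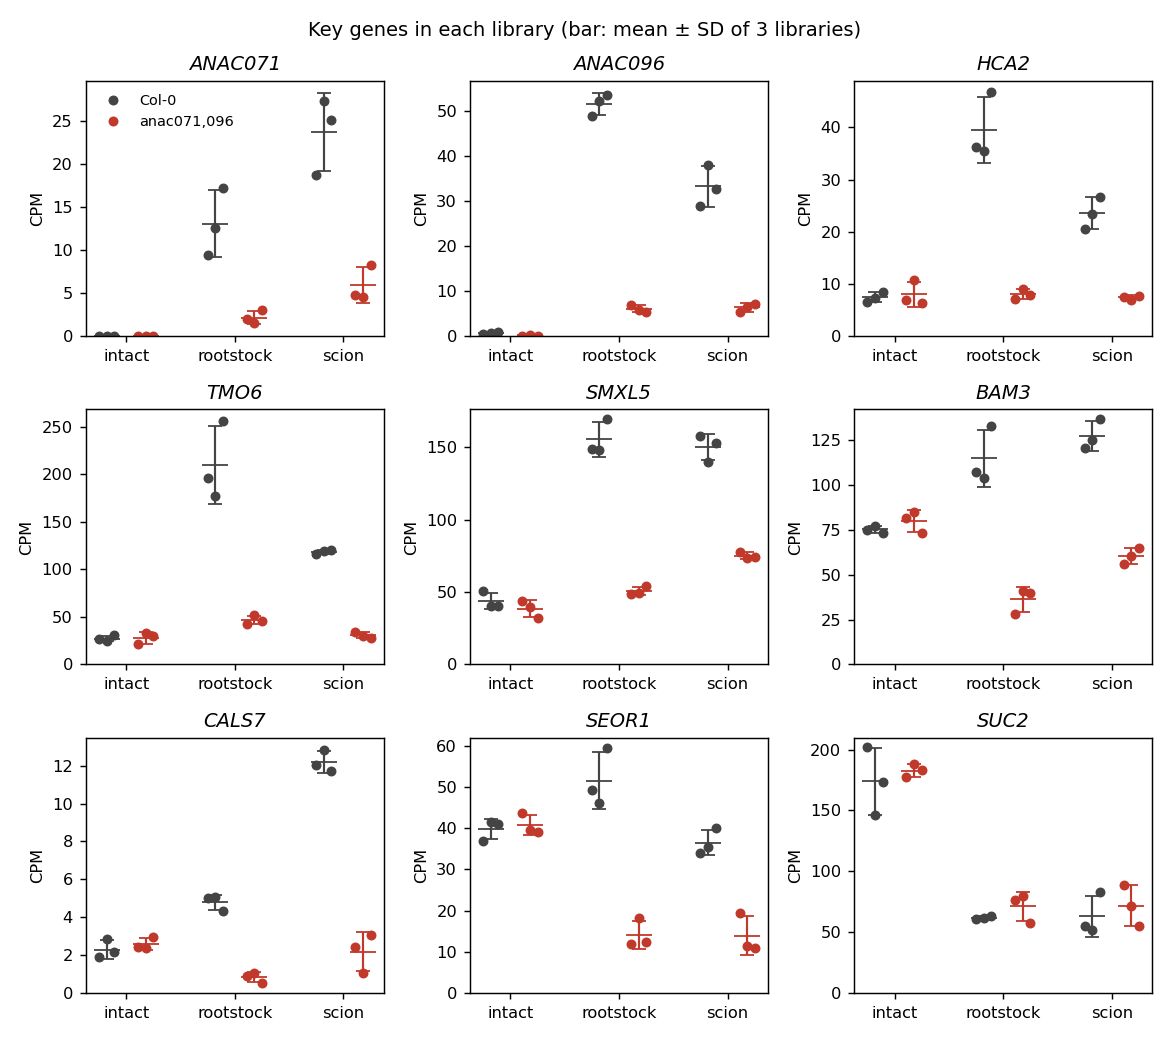
CPM of 9 genes in each library of anac071,096 and Col-0, for intact, scion and rootstock pieces, with bars for the mean and SD of 3 libraries and a separate linear axis for each gene. In the rootstock the mutant points lie below all Col-0 points for each gene shown but SUC2, whose groups overlap.

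Of 16 tested cambium genes, 3 were lower and none was higher. The list median was −0.40, 15 of the 16 log2 changes were negative, and at 8 genes every mutant library lay below every Col-0 library. Over all 19476 tested loci 0.796% were lower, 8357 log2 changes were negative, and 4.32% lay lower without overlap. SMXL5 (AT5G57130), a nuclear regulator of the phloem side of the vasculature, was at 48.6, 49.4 and 53.9 CPM in the mutant and at 149, 149 and 169 CPM in Col-0. The libraries of each group lay close together and far from the other group (log2 change −1.62 ± 0.14, adjusted p = 1.13e-08, edgeR). RUL1 (AT5G05160), a receptor-like kinase known to promote cambium activity, was at 24.6, 37.7 and 30.5 CPM in the mutant and 54.5, 57.2 and 72.8 CPM in Col-0. It was lower by −0.99 ± 0.17 (adjusted p = 0.00102), and its annotated span overlaps that of AT5G05170. LBD4, a regulator at the boundary of procambium and phloem, changed by −1.67 ± 0.38 (adjusted p = 0.0196). LBD4 lost its call without Col-0 replicate 3 or mutant replicate 1 or 3 (adjusted p = 0.134, 0.214 and 0.114, edgeR).

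The receptor kinase PXY, which maintains the cambium, and its target WOX4 did not pass. WOX4 was at 17.8, 16.0 and 18.8 CPM in the mutant and 19.5, 22.8 and 19.6 CPM in Col-0 (log2 change −0.23 ± 0.18). PXY was at 36.6, 34.8 and 44.6 CPM against 47.4, 51.9 and 44.1 CPM (−0.31 ± 0.19). The WOX4 libraries did not overlap between groups by a small margin, and the PXY libraries did. The summed level of the cambium list was 449 to 505 CPM in the mutant and 664 to 699 CPM in Col-0.

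Of 18 tested phloem genes, 7 were lower, against 0.796% of all tested loci, and none was higher. The list median was −0.957. After the values were seen, 5 genes of loading and companion cells were set apart from the other 13 tested members. The 7 were among these 13, whose log2 changes were −3.21 to −0.28, and none was among the 5. The difference between these subsets was not tested. BAM3 (AT4G20270), the receptor kinase that restrains early protophloem cells in roots, was at 28.1, 40.9 and 39.8 CPM in the mutant and 107, 104 and 133 CPM in Col-0. CALS7 (AT1G06490), which makes the callose of sieve plates, was at 0.915, 1.05 and 0.524 CPM in the mutant and 5.00, 5.04 and 4.31 CPM in Col-0. SEOR1 (AT3G01680), a filament protein of sieve elements, was at 12, 18.1 and 12.3 CPM in the mutant and 49.2, 46.1 and 59.4 CPM in Col-0.

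None of these 3 genes overlapped between the groups. The log2 change was −1.66 ± 0.16 for BAM3 (adjusted p = 9.39e-08, edgeR), −2.52 ± 0.39 for CALS7 (adjusted p = 2.18e-04) and −1.87 ± 0.30 for SEOR1 (adjusted p = 3.20e-04). NAC045 (AT3G03200), a regulator of the loss of the nucleus in sieve elements, was at 0.183, 0.502 and 0.381 CPM in the mutant and 1.95, 2.74 and 4.20 CPM in Col-0 (−3.05 ± 0.55, adjusted p = 0.00171). These 4 genes passed under every omission of a single library.

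The other 3 lower genes of the list were NEN4, an exonuclease downstream of NAC045 (−3.21 ± 0.71, adjusted p = 0.0150, edgeR), NAC086, the close relative of NAC045 (−2.80 ± 0.67, adjusted p = 0.0322), and SMXL4, a relative of SMXL5 (−1.38 ± 0.34, adjusted p = 0.0368). NEN4 passed in 3 of the 6 omissions and lost its call without Col-0 replicate 2 or mutant replicate 1 or 3. NAC086 passed only without Col-0 replicate 2, and SMXL4 only without Col-0 replicate 1. The 5 genes of phloem loading and companion cells (SUC2, SWEET11, SWEET12, PP2-A1 and FTIP1) had log2 changes of 0.02 to 0.37, and 0 passed. SUC2 (AT1G22710), the sucrose carrier of companion cells, was at 76.7, 79.6 and 57.2 CPM in the mutant and 60.7, 61.3 and 63.4 CPM in Col-0, and the groups overlapped. APL and OPS, regulators of phloem identity and protophloem continuity, had log2 changes of −0.28 and −0.41 and did not pass. The summed level of the whole list overlapped between groups, 579 to 807 CPM in the mutant against 692 to 914 CPM in Col-0, and its member CLE45 was at 0 in all 6 libraries.

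**Figure D3:**
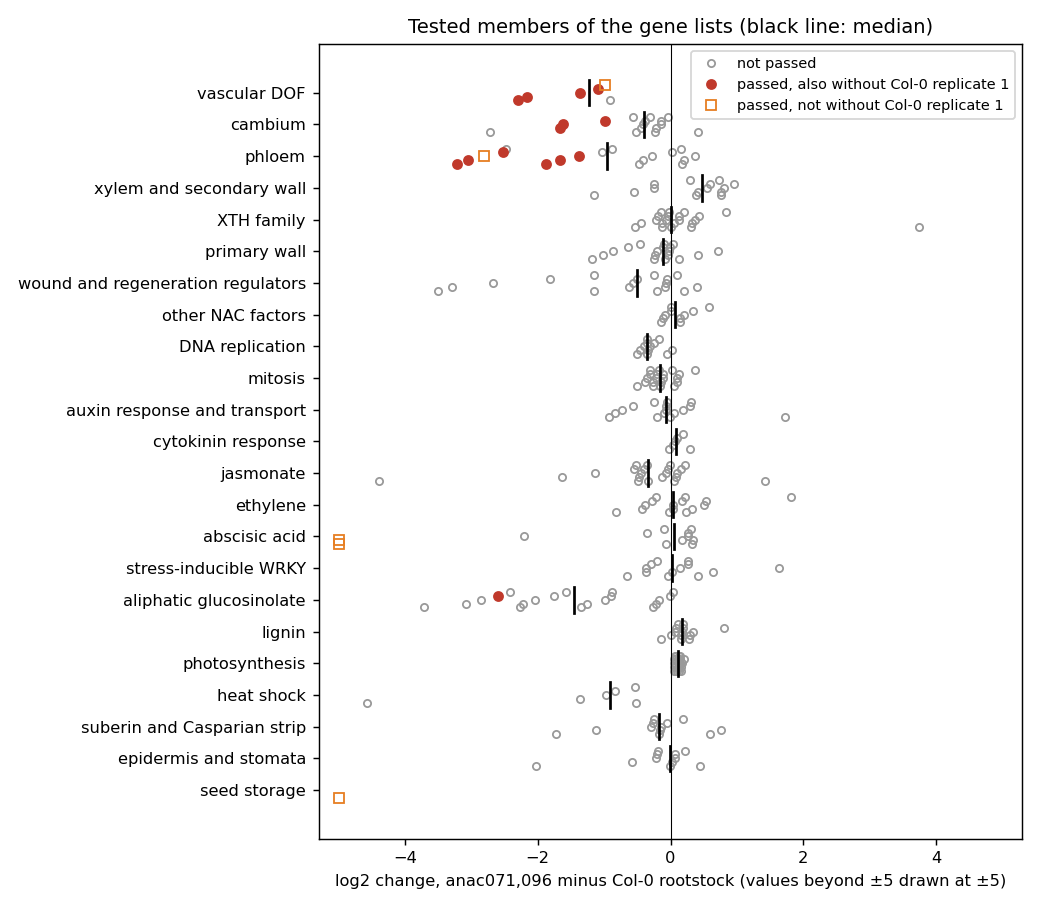
Log2 change, anac071,096 minus Col-0 rootstock, of each tested member of the main gene lists, with a black line at each list's median. Filled red points passed with and without Col-0 rootstock replicate 1 and open orange squares passed only with it. Members that passed lie on the lower side in 6 lists and on the higher side in none.

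Genes outside the lists gave the largest changes. By the naming rule, 12 loci stand for the 70 lower ones that passed with and without Col-0 replicate 1, reached 5 CPM in a group and did not overlap. APS4 (AT5G43780), whose symbol is that of an ATP sulfurylase while the reference product names a pseudouridine synthase family, was at 1.28, 0.853 and 1.1 CPM in the mutant. In Col-0 it was at 48.0, 38.7 and 59.0 CPM, a log2 change of −5.48 ± 0.42 (adjusted p = 2.48e-09, edgeR), and its annotated span overlaps AT5G43770. It was also low in intact hypocotyls of the mutant, where it was at 1.02 ± 0.790 CPM against 28.4 ± 9.47 CPM in Col-0 (SD, n = 3).

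SUS6 (AT1G73370), a sucrose synthase, was at 0.183, 1.30 and 1.43 CPM in the mutant and 10.096, 21.8 and 18.5 CPM in Col-0. AT2G27140, an HSP20-like chaperone, was at 0.183, 1.45 and 1.91 CPM in the mutant and 14.3, 27.7 and 20.8 CPM in Col-0. SSL1, a strictosidine synthase-like protein, was at 0.549, 1.56 and 0.524 CPM against 9.05, 8.47 and 9.91 CPM. For SUS6 and AT2G27140, though not for SSL1, replicate 1 was the lowest library in both groups, and none of the 3 genes overlapped between groups. The log2 changes were −4.11 ± 0.54, −4.15 ± 0.52 and −3.39 ± 0.47.

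The remaining named loci lay between −2.96 and −3.98 on the log2 scale. They were AT3G05620 (pectin methylesterase inhibitor superfamily), AT3G15800 (glycosyl hydrolase), APX5 (ascorbate peroxidase), AT4G09950 (nucleoside triphosphate hydrolase), AT1G29380 (X8 domain), NS2 (asparaginyl-tRNA synthetase) and AT4G20320 (CTP synthase), beside ANAC096. All 12 passed under every omission of a single library.

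Related loci were lower together in several product families, which were picked out after their values were seen and are counts without a test. Both tested sieve element occlusion genes were lower, SEOR1 and its neighbour SEOa (AT3G01670), the latter with −1.44 ± 0.31 (adjusted p = 0.0119, edgeR) and no call without Col-0 replicate 3 or mutant replicate 1 or 3. Of 5 tested sucrose synthase genes 2 were lower, SUS6 and SUS5 (−3.04 ± 0.53, adjusted p = 9.63e-04). All 3 tested AWPM-19 genes and 3 of 10 X8 domain genes were lower (family medians −2.38 and −2.49), and 2 of those X8 genes passed without Col-0 replicate 1. In larger families few members were lower, 3 of 15 remorin genes (family median 0.06) and 3 of 40 ankyrin repeat genes (family median 0.05). The ankyrin repeat genes AT5G04680, AT5G04690 and AT5G04700 are neighbours on chromosome 5. RTM2 (AT5G04890), a protein known from phloem in the restriction of virus movement, was at 1.78, 8.93 and 5.72 CPM in the mutant and 28.6, 41.9 and 43.0 CPM in Col-0. PDLP7, a plasmodesmata-located protein, was at 2.65, 2.36 and 3.00 CPM against 9.40, 7.74 and 7.56 CPM. Neither gene overlapped between groups, with changes of −2.79 ± 0.39 and −1.62 ± 0.20.

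Other gene groups gave few or no calls. Beside the mutated genes, 33 lists were counted, and in 27 of them, with 327 tested members, none passed. No member of the 21 tested XTH genes passed (list median 0.00). XTH19 was at 90.5, 243 and 184 CPM in the mutant and 74.9, 135 and 240 CPM in Col-0, and XTH20 was at 17.1, 29.3 and 22.4 CPM against 24.0, 24.2 and 45.4 CPM. Both genes overlapped between groups, with log2 changes of 0.20 ± 0.48 and −0.45 ± 0.49. XTH10, which is outside the list, was lower, at 0, 0.351 and 0.0477 CPM against 1.25, 3.79 and 2.41 CPM (−4.22 ± 0.86, adjusted p = 0.00596, edgeR), and lost its call without mutant replicate 1 or 3 (adjusted p = 0.0801 and 0.0745).

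Of 17 tested wound and regeneration regulators none passed. Their median log2 change was −0.51, and −0.17 without Col-0 replicate 1. Of the 17 changes 14 were negative, against 8357 over all 19476 tested loci. Without overlap, 4 lay lower and 1 higher in the mutant, against 842 and 681 of all tested loci. ERF115, a factor that marks divisions next to damaged cells, was at 13.3, 13.2 and 12.3 CPM in the mutant and 28.2, 27.6 and 30.1 CPM in Col-0. Its groups were apart and the adjusted p was 0.0516 (log2 change −1.15 ± 0.29, edgeR). None of 12 DNA replication genes passed (median −0.35), although their summed level was 94.9 to 118 CPM in the mutant and 137 to 140 CPM in Col-0. Of these 12 log2 changes 11 were negative, and 4 of the genes lay lower without overlap. None of 20 mitosis genes passed (median −0.16), with sums of 139 to 164 CPM and 174 to 178 CPM. None of 14 xylem and secondary wall genes passed (median 0.48), nor any of 24 photosynthesis genes, which lay between 0.05 and 0.21.

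The abscisic acid and seed storage calls rest on a single library. In the abscisic acid list RAB18 and LEA4-5 were lower, and in the seed storage list OLEO1 was. RAB18 was at 234 CPM and OLEO1 at 70.9 CPM in Col-0 replicate 1, and 0 of the 3 genes passed without that library. The summed level of 6 heat shock genes, of which none passed, was 112.7 CPM in that library, 36.9 and 72.6 CPM in the other Col-0 libraries and 41.9 to 48.0 CPM in the mutant. The part of that library's seed and heat shock transcripts in the other results was not tested, and calls of named genes that were lost without it are given. Aliphatic glucosinolates are sulfur-rich defence compounds. Of the 20 tested genes of this list 1 was lower, 19 of the 20 log2 changes were negative, and the list median was −1.46. Over all 19476 tested loci 8357 log2 changes were negative. Without Col-0 replicate 1 the median was −1.51 and 3 genes were lower, IPMI2, MAM1 and CYP79F2 (adjusted p = 0.00806, 0.0124 and 0.00332, edgeR). At 19 of the 20 genes, IPMI2, MAM1 and CYP79F2 included, the groups overlapped, and the summed level was 84.5 to 113 CPM in the mutant and 88.8 to 156 CPM in Col-0. IPMI2, of the chain elongation of methionine, was at 0.0915, 0.251 and 1.29 CPM against 0.950, 5.24 and 3.64 CPM (−2.60 ± 0.65, adjusted p = 0.0457, edgeR). It lost its call without Col-0 replicate 2 or 3 or mutant replicate 1 or 2.

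Of the 13 loci higher in the mutant rootstock, 5 met the naming rule. LACS2 (AT1G49430), a long-chain acyl-CoA synthetase of cutin synthesis, was at 44.3, 67.9 and 76.0 CPM in the mutant and 19.5, 23.7 and 24.0 CPM in Col-0 (1.49 ± 0.25, adjusted p = 7.10e-04, edgeR). USPL1 (AT1G49320), a protein with a BURP domain, was at 56.3, 87.0 and 57.5 CPM against 26.3, 25 and 26.3 CPM (1.37 ± 0.24, adjusted p = 0.00133). Both were high in all mutant libraries and passed under every omission of a single library.

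AGP31 (AT1G28290), an arabinogalactan protein of the vascular cell wall, was at 29.4, 20.0 and 25.4 CPM against 9.90, 6.57 and 12.4 CPM (1.38 ± 0.29, adjusted p = 0.00929, edgeR). AT5G22580 changed by 1.4 ± 0.32 (adjusted p = 0.0236) and AT5G44400 by 1.71 ± 0.40 (adjusted p = 0.0307). AGP31 lost its call without Col-0 replicate 2 or mutant replicate 1 (adjusted p = 0.0951 and 0.0843, edgeR). AT5G22580 lost it without Col-0 replicate 2 or 3 or mutant replicate 2, and AT5G44400 without Col-0 replicate 2 or 3 or mutant replicate 1 or 3.

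The next comparison asks whether the rootstock difference was already there without a graft. In intact hypocotyls 8 loci differed between the genotypes (0.0411% of those tested, adjusted p below 0.05, edgeR), 3 lower (0.0154%) and 5 higher (0.0257%) in the mutant. DESeq2 called 15, and the intact groups fitted alone gave 3. APS4 was lower in both pieces, which is 1 of the 155 rootstock loci and 1 of the 3 intact ones. The loci LACS2, AT3G05945, AT1G75945 and AT3G44006 were higher in both, 4 of the 13 rootstock loci and 4 of the 5 intact ones. AT3G44006 had 0 counts in Col-0 rootstocks and a mean of 2.84 CPM in mutant rootstocks, at least 59.4-fold higher against a floor of 3 counts over the group.

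The difference of differences, rootstock minus intact, passed at 40 loci (0.205%), 39 of them more negative (0.2%) and 1 more positive (0.00513%) in the rootstock. Among them were 2 of the 6 DOF genes, 3 of the 18 phloem genes and 1 of the 16 cambium genes. In Col-0 HCA2 was at 7.44 ± 0.945 CPM in intact tissue and 39.5 ± 6.36 CPM in rootstocks (SD, n = 3). In the mutant it was at 8.01 ± 2.41 CPM in intact tissue and 8.03 ± 0.933 CPM in rootstocks. The genotypes were alike within their spread in intact tissue and apart in rootstocks, a difference of differences of −2.41 ± 0.28 (adjusted p = 3.02e-05, edgeR).

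TMO6 was at 27.3 ± 3.04 CPM in intact tissue and 210 CPM in rootstocks of Col-0. In the mutant it was at 28.1 ± 6.10 and 46.7 CPM (−2.21 ± 0.27, adjusted p = 3.03e-05, edgeR). SMXL5 was at 43.9 ± 5.77 and 156 CPM in Col-0 and at 38.6 ± 5.89 and 50.6 CPM in the mutant (−1.43 ± 0.19, adjusted p = 8.70e-05). For these 2 genes the intact groups were close and the Col-0 rootstock stood well above all others. BAM3 and SEOR1 showed another pattern, in that the mutant rootstock lay below intact tissue. BAM3 was at 75.2 ± 2.03 CPM in intact Col-0, 80.01 ± 5.92 CPM in intact mutant, 115 CPM in Col-0 rootstocks and 36.3 CPM in mutant rootstocks (−1.75 ± 0.22, adjusted p = 4.53e-05, edgeR). SEOR1 was at 39.8 ± 2.49, 40.8 ± 2.51, 51.6 and 14.1 CPM in the same order (−1.90 ± 0.41, adjusted p = 0.0385). For CALS7 the difference of differences was −2.68 ± 0.53 (adjusted p = 0.0189).

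By the naming rule the most negative loci of this comparison were SUS6 (−3.83 ± 0.70, adjusted p = 0.00990, edgeR), AT3G15800 (−3.76 ± 0.72, adjusted p = 0.0168), AT2G27140 (−3.49 ± 0.68, adjusted p = 0.0174), SSL1 (−3.22 ± 0.62, adjusted p = 0.0168) and AT1G29380 (−3.03 ± 0.48, adjusted p = 0.00135). The locus with a positive difference was AT1G49450 (3.37 ± 0.70, adjusted p = 0.0284), at 0.273 CPM in intact Col-0 and 0.0286 CPM in the intact mutant. These are 20 and 2 counts over each group, the latter under the floor of 3 counts. Its rootstock levels overlapped between genotypes. The count of 40 was 103 with DESeq2, 10 with the compared groups fitted alone and 18 to 54 without single libraries, lowest without mutant rootstock replicate 1.

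The 123 lower loci that passed with and without Col-0 replicate 1 are described across the pieces in the same way. The median over these loci of the mean CPM was 3.53 in intact Col-0, 6.50 in Col-0 rootstocks and 9.13 in Col-0 scions. In the mutant it was 2.70 in intact tissue, 1.07 in rootstocks and 3.00 in scions. The rootstock mean exceeded the intact mean at 105 of the 123 loci in Col-0 and at 17 in the mutant, against 51.8% and 52.9% of all tested loci. The loci were chosen on these rootstock libraries, and a low mutant and high Col-0 rootstock follow in part from that choice. The differences that chose them use no intact or scion library, whereas the filter and the estimate of the spread do.

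The same genotypes were compared above the junction. In scions 70 loci were lower and 5 higher in the mutant (0.359% and 0.0257%). The 75 calls became 155 with DESeq2, 179 with the scion groups fitted alone and 33 to 55 without single libraries, with 36, 42 and 33 without mutant scion replicates 1, 2 and 3. Of the 155 loci lower in the rootstock 60 were also lower in the scion, 38.7% of the rootstock loci and 85.7% of the scion loci. The 60 became 89 with DESeq2 in the scion, 97 with the scion groups fitted alone, and 27 to 46 without single scion libraries, fewest without mutant replicate 3. At 152 of the 155 loci the scion change was negative, with a median of −1.60, whereas 47.2% of all tested loci were negative in the scion. All 123 loci kept without Col-0 replicate 1 were negative in the scion, with a median of −1.68. HCA2 was at 7.40 ± 0.382 CPM in mutant scions and 23.6 ± 3.11 CPM in Col-0 scions (−1.67 ± 0.20, adjusted p = 1.04e-05, edgeR). CALS7 was at 2.18 ± 1.01 and 12.2 ± 0.587 CPM (−2.48 ± 0.36, adjusted p = 1.82e-04).

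No locus passed for a difference between the rootstock and the scion change by edgeR, where 394 had an unadjusted p below 0.05 and DESeq2 called 2. This does not show that the changes were the same. SUS6, with −4.11 in the rootstock and −1.51 in the scion, differed by −2.61 ± 0.69. That difference is several times its SE, yet it did not pass after the adjustment over all tested loci. For CALS7 the difference was −0.04 ± 0.47.

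**Figure D4:**
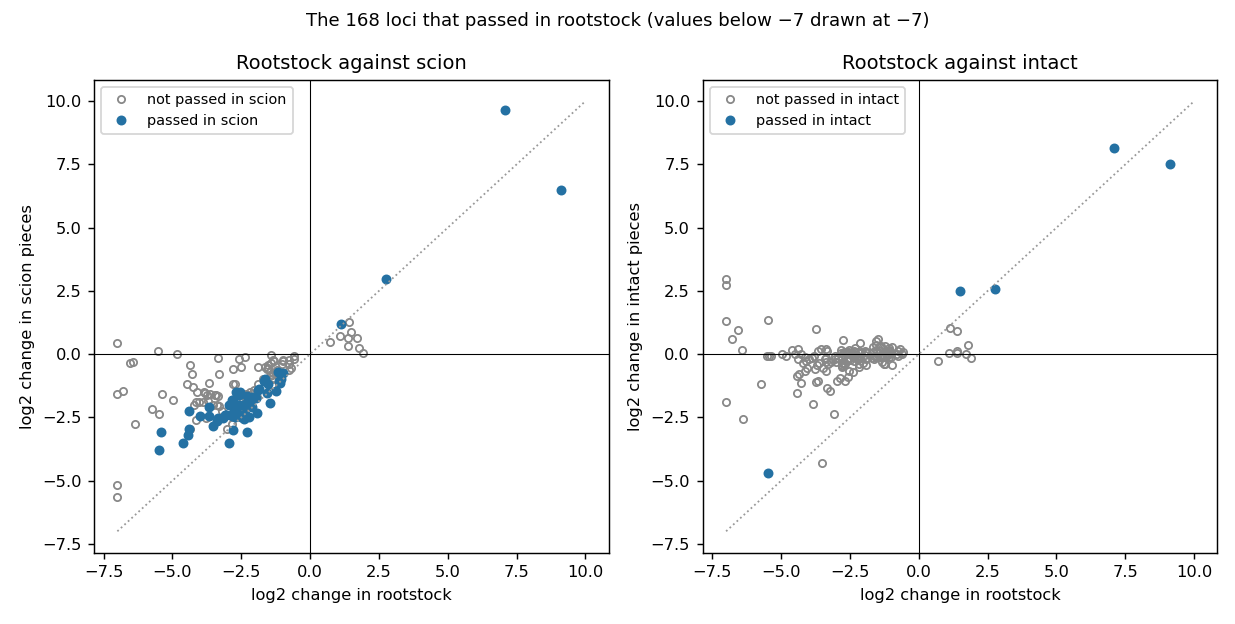
Log2 change in scion and in intact pieces against the log2 change in rootstock, for the loci that passed in the rootstock, with a dotted line of equal change. The lower loci lie below 0 in scions but for 3 loci, and around 0 in intact pieces.

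Rootstocks of the other mutants served as further references. No Col-0 library enters these differences, although the spread behind their p-values is estimated over all 36 libraries. Against erf114,115 rootstocks 123 loci passed (0.632%), 70 lower (0.359%) and 53 higher (0.272%) in anac071,096. This count was 205 with DESeq2, 68 without anac071,096 replicate 3 and 4 when those groups were fitted alone, so the calls against erf114,115 rest on the spread estimated over all groups. HCA2 was at 21.2 CPM in erf114,115 rootstocks and 8.03 CPM in anac071,096 (−1.4 ± 0.20, adjusted p = 1.22e-04, edgeR). TMO6 (−1.50 ± 0.19, adjusted p = 2.31e-05), SMXL5 (−0.94 ± 0.14, adjusted p = 1.45e-04), BAM3 (−0.72 ± 0.16, adjusted p = 0.0197), CALS7 (−2.31 ± 0.39, adjusted p = 0.00124) and SEOR1 (−1.55 ± 0.30, adjusted p = 0.00491) were also lower than in erf114,115. The erf114,115 rootstock libraries lay far apart at SEOR1, with 19.6, 35.1 and 68.9 CPM in replicates 1 to 3. At CALS7 they were at 1.65, 4.92 and 5.76 CPM. AT2G28510 and RUL1 did not pass, with −0.14 ± 0.24 and −0.40 ± 0.17.

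Against dof quadruple rootstocks 1197 loci passed (6.15%), 534 lower (2.74%) and 663 higher (3.4%). The count was 783 with those groups fitted alone and 630 to 1073 without single libraries, with 735 without anac071,096 replicate 2 and 630 without dof quadruple replicate 2. The labels do not name the genes mutated in that line. HCA2 was at 52.7 CPM in those libraries (−2.72 ± 0.20, adjusted p = 1.26e-10, edgeR), SMXL5 at 140 CPM (−1.47 ± 0.14, adjusted p = 8.47e-09) and CALS7 at 3.93 CPM (−2.23 ± 0.39, adjusted p = 3.49e-04). TMO6, at 75.5 CPM there, was lower in anac071,096 by a smaller margin (−0.69 ± 0.19, adjusted p = 0.0234). RUL1, at 30.9 CPM in anac071,096 and 32.8 CPM in dof quadruple, did not pass (−0.08 ± 0.17). BAM3 was at 71.3 CPM there (−0.98 ± 0.16, adjusted p = 1.31e-04).

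Some of these genes were also lower than Col-0 in the other mutants, in tests that share the Col-0 rootstock libraries with the main comparison. In erf114,115, where 0.334% of tested loci were lower than Col-0, HCA2 (−0.90 ± 0.19, adjusted p = 0.0214, edgeR), SMXL5 (−0.68 ± 0.13, adjusted p = 0.0109) and BAM3 (−0.94 ± 0.16, adjusted p = 0.00146) were lower. ANAC096 itself was also lower in erf114,115, at 21.2 CPM against 51.6 CPM in Col-0 (−1.28 ± 0.28, adjusted p = 0.0273, edgeR). ANAC071 did not pass there (−0.69 ± 0.33). In dof quadruple, where 2.09% were lower, TMO6 (−1.47 ± 0.19, adjusted p = 4.81e-06), BAM3 (−0.69 ± 0.16, adjusted p = 0.00862), RUL1 (−0.91 ± 0.17, adjusted p = 0.00119) and AT2G28510 (−1.48 ± 0.25, adjusted p = 2.34e-04) were lower. BAM3 was thus lower than Col-0 in all 3 mutants, most so in anac071,096. CALS7 and SEOR1 did not pass in erf114,115 or in dof quadruple.

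The sequences upstream of 3 lower genes are shown because HCA2 and TMO6 were the DOF genes with the largest changes and CALS7 holds matches to NAC motifs. The motif CATGTG, the motif TTGCGT and the motif TTACGT, known as cores of NAC binding sites, were searched on both strands from 250 bases before to 50 bases after each annotated gene start. CALS7 holds TTACGT on the minus strand from 88 bases before its start and TTGCGT on the plus strand from 51 bases before it, both in capitals. HCA2 and TMO6 hold none of these letters in that window, nor does BAM3, which was read in the same way and is not printed. The 250 bases before the start are printed 5′ to 3′ on the gene's strand, from TAIR10.1.
CALS7 (chr1:1978128-1978377, plus strand): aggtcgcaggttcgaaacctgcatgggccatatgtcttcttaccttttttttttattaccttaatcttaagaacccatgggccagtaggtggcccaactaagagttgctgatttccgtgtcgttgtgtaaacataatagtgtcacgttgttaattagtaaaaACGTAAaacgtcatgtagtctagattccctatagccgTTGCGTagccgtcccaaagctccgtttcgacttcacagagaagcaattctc
HCA2 (chr5:25258705-25258954, minus strand): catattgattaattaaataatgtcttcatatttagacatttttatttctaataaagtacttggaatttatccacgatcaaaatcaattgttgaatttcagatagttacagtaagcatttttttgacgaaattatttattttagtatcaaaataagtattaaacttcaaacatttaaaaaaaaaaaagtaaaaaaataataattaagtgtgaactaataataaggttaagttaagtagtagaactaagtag
TMO6 (chr5:24240560-24240809, plus strand): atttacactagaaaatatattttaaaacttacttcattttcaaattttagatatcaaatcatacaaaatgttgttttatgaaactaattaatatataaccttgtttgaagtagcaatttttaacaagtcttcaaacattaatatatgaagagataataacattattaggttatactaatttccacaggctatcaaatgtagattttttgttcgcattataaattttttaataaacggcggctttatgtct
At least 1 of the 3 motifs was in 45 of 155 windows of lower loci (29.0%), in 33 of the 123 kept without Col-0 replicate 1 (26.8%) and in 0 of 13 windows of higher loci. The share was 28.4% of 19325 tested loci and 27.9% of 37897 annotated genes. The lower loci thus held the motifs about as often as all promoters of the same length.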

How the data were processed

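RNA was measured in 36 libraries of 12 groups. The authors' deposited values are raw read counts for 33341 loci, whole numbers that are not normalized. Per the labels' protocols, libraries of polyadenylated RNA were made with a NEBNext Ultra kit and 13 PCR cycles. Per the submitters' processing notes, fastp, HISAT2, HTSeq and DESeq2 were used with TAIR10. Their roles, their versions, the strand setting and the annotation release are not stated there, so reads of overlapping or antisense genes cannot be told apart.

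Tests on the deposited counts used the quasi-likelihood method of edgeR 4.0.16 (R 4.3.3), robust, after TMM scaling. Loci had to pass filterByExpr at its minimum count of 10. A single model held the 12 groups, leaving 24 residual degrees of freedom. Benjamini-Hochberg adjustment ran over the 19476 tested loci, with a threshold of 0.05. The common biological coefficient of variation was 25.8%. The scripts were tested on simulated data. CPM are counts divided by the library's total over tested loci times its TMM factor, and scaled to 1e+06. SD are over 3 libraries, and SE is the size of the log2 change divided by the square root of its F. P-values measure the spread between libraries, which the series' design text calls biological replicates. The replicates differed by more than counting noise. Counting floors are 3 counts and cover counting error only.

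Named loci were, by rule, up to 12 per direction with the most extreme log2 change among those that passed with and without Col-0 rootstock replicate 1, reached a mean of 5 CPM, did not overlap and had a symbol or product, of which 70 lower and 5 higher existed. A gene list contributed at most its 4 called genes of lowest adjusted p, or its most abundant gene where none was called. For the difference of differences up to 5 per direction were named. Other genes were named after their values were seen, among them the remaining DOF, cambium and phloem members, SUC2, WOX4, PXY, ERF115, XTH10, RTM2, PDLP7 and the product families. The comparison and the gene lists were chosen with earlier results of these data known. Names, products and sequences come from the RefSeq annotation of TAIR10.1, which matched 33056 of 33341 loci. Alternatives were DESeq2 1.42.0, its size factors, upper-quartile scaling, no filter, a fit of the compared groups alone, a replicate block and the omission of each library.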

Additional observations from a re-analysis of the deposited data

Results flagged for a closer look

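The change between mutant and wild type differed between rootstock and intact hypocotyl at 40 loci by a direct test of the difference (edgeR, adjusted p below 0.05). Among the loci named for it, the log2 difference was −3.83 for SUS6, −3.76 for AT3G15800, −3.49 for AT2G27140, −3.22 for SSL1 and −3.03 for AT1G29380. It was 3.37 for AT1G49450, which had 2 counts over the intact mutant libraries, under the floor of 3 counts.

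Col-0 rootstock replicate 1 held 2514 loci that were counted in no other library. The tests, which need counts in several libraries, did not use these loci.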

How the results depend on the processing

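The fits with DESeq2 size factors, upper-quartile scaling and no filter on low counts left each count of calls within 1.5 times its value. DESeq2 called 103 loci for rootstock minus intact, 2 for rootstock minus scion, 15 in intact pieces, 155 in scions and 205 against erf114,115. Fitting the compared groups alone gave 65 loci for the rootstock (57 lower, 8 higher), 10 for rootstock minus intact, 1 for rootstock minus scion, 3 in intact pieces, 179 in scions, 4 against erf114,115 and 783 against dof quadruple. Fewer libraries then estimate the spread. Leaving out single libraries gave 84 to 192 loci for the rootstock (fewest without mutant replicate 1), 18 to 54 for rootstock minus intact, 0 and 0 for rootstock minus scion, 6 to 10 in intact pieces, 33 to 55 in scions, 68 to 128 against erf114,115 and 630 to 1073 against dof quadruple. Without Col-0 rootstock replicate 1, LEA4-5 reversed from −6.42 to 0.35 and OLEO1 from −8.43 to 3.75, neither passing (OLEO1 then has 0 counts in Col-0, so that its value depends on the prior count), and under the other omissions they lay between −7.002 and −5.992 and between −9.67 and −7.90. A replicate block gave 150 lower and 14 higher loci. Deviations of same-numbered libraries of the rootstock groups compared correlated at 0.215, −0.212 and −0.01. So few values cannot decide whether the numbers pair the samples, and pairing between pieces of a genotype was not examined. The causes of these shifts were not tested. Of the values of single genes under the alternatives, 647 kept direction and side of the threshold, 50 kept direction and lost the call, 27 that had not passed moved and 2 reversed. With 3 libraries per group and a coefficient of variation of 25.8%, a change that did not pass is not shown to be absent.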

Other observations

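The 155 lower loci lay on all 5 chromosomes, 38, 29, 20, 24 and 44 on chromosomes 1 to 5, out of 5104, 2929, 3832, 2934 and 4527 tested loci. The 13 higher loci lay on chromosomes 1, 3 and 5, with 7, 2 and 4 loci. The summed level of the 121 lower loci kept without Col-0 replicate 1, other than ANAC071 and ANAC096, was 602 to 844 CPM in mutant rootstocks and 2265 to 2890 CPM in Col-0 rootstocks. It was 1530 to 1852 CPM in dof quadruple rootstocks, and 1274 and 1302 CPM in replicates 1 and 2 and 2114 CPM in replicate 3 of erf114,115 rootstocks. In intact pieces it was 1049 to 1350 CPM in the mutant and 1207 to 1405 CPM in Col-0, and these ranges overlapped. The loci were chosen on the mutant and Col-0 rootstock libraries. The gap between those groups follows in large part from that choice. Levels between them in the other mutants are not independent of it.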
